A study of Danio rerio with 3 samples.

Results

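The RNA of whole zebrafish larvae raised in the DMSO vehicle was described gene by gene at 6 dpf (days post-fertilization). The members were all mRNA entries of the deposited table whose name was more than a bare clone prefix such as si or zgc, which gave 19814 of the 21098 entries. The study asked how BDE47, a brominated flame retardant, changes the larval transcriptome, and it dissolved BDE47 in DMSO, so the vehicle larvae carried the solvent without the chemical. The larvae were of the Tuebingen strain and wild type, were exposed from a few hours after fertilization, and were pooled whole for TRIzol extraction and an Illumina TruSeq library made from poly(A) RNA. The pool was sequenced once. There was 1 library and no replicate, so no test was made and the spread between larvae, pools or preparations is unknown. The vehicle larvae are not untreated larvae, and the difference from untreated larvae was not examined here. The paper did compare the vehicle with a blank control. It reported changes in a small part of the detected transcripts, and stated that the vehicle had no significant effect on the larval transcriptome. From functional enrichment, however, it described the induction of immune responses as a major effect of DMSO. No comparison with the BDE47 larvae was made.

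The authors deposited TMM-normalized counts, in which 1 read was worth 0.790 normalized counts, and 100% of the values came out as whole reads within 0.01 of a read. The members held 34156825 reads, or 82.4% of the 41474296 reads on all entries. A further 6200129 reads, 15.4% of the mRNA reads, lay on 10 mRNA entries named only by a clone prefix, in which many genes may be mixed. Shares below are percent of the reads on the members, with exact 95% confidence intervals (CI, Clopper-Pearson) that reflect only the error of counting, as PCR copies could not be told from separate molecules. For a single gene, an exact Poisson interval ran from 81.4 to 122 reads at 100 reads and from 9805 to 10198 reads at 10000 reads. At 0 reads this interval reached 3.69 reads, and a floor of 3 reads, a share of 8.78e-06%, was used for single genes. Transcript lengths were not used, and a long transcript gives more reads than a short one at the same number of molecules, so the order of reads is not the order of molecules between genes. The deposited names hold no dot, and 101 member names are the stem of 2 or more dotted RefSeq symbols (myhz1, tnni2a, hbbe1), so that reads of tandem copies may be mixed there. These 101 genes held 3.14% of the reads.

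At this age the zebrafish larva has hatched, swims, hunts by sight and has nearly used up its yolk. Its trunk is mostly fast muscle, its skin is a thin keratin-rich epithelium with ionocytes that take up salts from fresh water, and its liver, pancreas and gut are at work. The genome duplication of teleost fishes left many genes in a and b copies, and tandem duplication added further copies of opsin, globin, crystallin and protease genes.

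The label whole larvae was set against 71 markers of 24 tissues and cell types. Of these markers, 70 had at least 10 reads and 64 had at least 100 reads. Of all members, 89.5% and 69.3% did. The neuron marker gap43 was planned but was not among those found. In 23 of the 24 tissues every marker found had at least 10 reads. The exception was bone, where col1a1a, a chain of type I collagen, had 14080 reads and sp7, a regulator of osteoblasts, had 26 reads. The third bone marker, bglap or osteocalcin (entry LOC792433), had 2 reads, under the floor of 3 reads. The other 5 markers under 100 reads were nanos3 of germ cells with 16 reads, the thyroid enzyme tpo (LOC569363) with 18, the iodide transporter slc5a5 with 34, tyr, the tyrosinase of melanin synthesis, with 37, and the T cell kinase lck with 93. In a whole larva, few cells of a type and little RNA per cell cannot be told apart.

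A small number of genes held much of the RNA. The gene with the most reads, myhz1, a myosin heavy chain of fast muscle, had 510061 reads, a share of 1.49% (95% CI 1.489% to 1.497%). The 10 genes with the most reads held 9.09% (95% CI 9.08% to 9.10%), the first 100 held 34.3% and the first 1000 held 66.4%. With the clone prefix entries counted as well, the first 10 entries held 21.4% of the mRNA reads. It took 56 genes to reach 25% of the reads, 278 genes to reach 50% and 5383 genes to reach 90%. The median member had 312 reads. In all, 17730 members (89.5%) had at least 10 reads, 4846 had at least 1000 reads and 44 had at least 100000 reads, while 454 had none. On the log scale of rank, the curve of cumulative share bends upward over the first genes. It then keeps climbing and reaches 89.0% at 5000 genes.

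**Figure D1:**
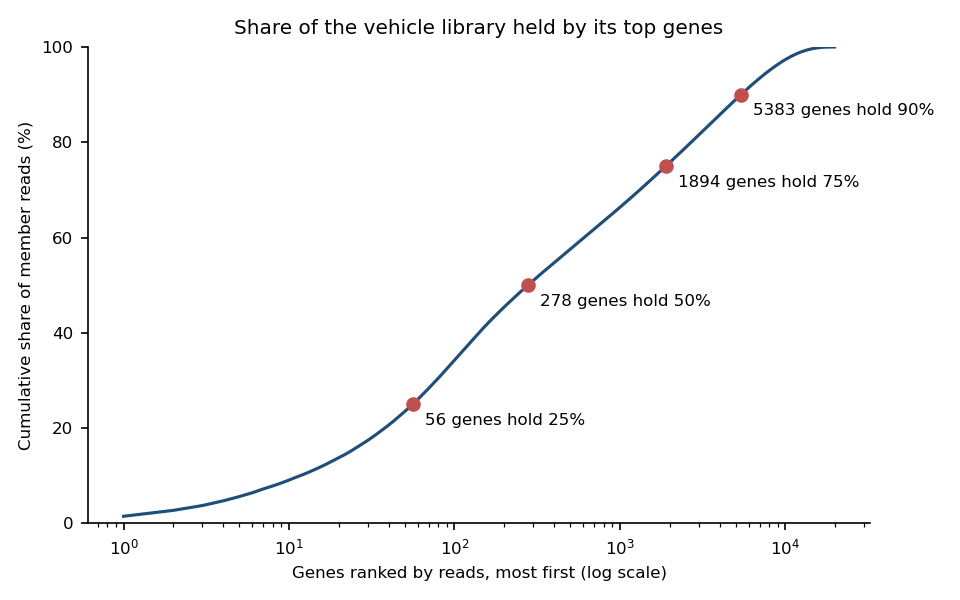
Cumulative share of the member reads (percent, vertical axis) against the rank of the gene by reads (log scale, horizontal axis) in the DMSO vehicle library. Red points mark the 56, 278, 1894 and 5383 genes that held 25, 50, 75 and 90% of the reads.

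The leading 10 genes came from fast muscle, exocrine pancreas, skin and protein synthesis. Fast muscle gave myhz1, the calcium buffers pvalb2 (347454 reads) and pvalb1 (216057 reads), and the myosin light chain mylz2 (275678 reads). The exocrine pancreas gave the trypsin-type protease prss59.2 (entry LOC100535672, 334598 reads), the trypsin try (303508 reads) and the chymotrypsinogen ctrb1 (205952 reads). The skin gave the keratins krt4 (277266 reads) and cyt1 (211771 reads), and protein synthesis gave ef1a, which brings aminoacyl-tRNA to the ribosome, with 423728 reads. By the gene lists, 13 of the first 40 genes were ribosomal proteins, 6 were skeletal muscle genes, 4 were translation factors, 4 were liver or apolipoprotein genes, and 3 each were of the exocrine pancreas and the epidermis. The sarcomeric actin actc1b (133531 reads) was listed with the other actins and is not among these 6. Among the first 100 genes the ribosomal proteins numbered 50 and held 13.1% of all reads, and the 12 muscle genes held 6.06%. The translation factors of the first 40 included tpt1 (166608 reads). Also among the first 40 were the chaperone hsp90ab1 (198223 reads), the cytoplasmic actin bactin2 (167340 reads) and gapdh (151899 reads). Of the 3 genes there that no main group held, gnb2l1 (rack1), a scaffold on the small ribosomal subunit, had 112946 reads, the hormone gene gip had 111090 reads, and ucp1, a carrier of the inner mitochondrial membrane, had 102696 reads.

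To describe the library by tissue, 47 gene lists were used, of which 46 had a measured gene. They held 1509 different genes, 57 of them in 2 or more lists, and 52.9% of the reads. At least 10 reads were found for 1451 of these genes, beside 89.5% of all members, and 28 had 3 reads or fewer. Above the median of all members lay 71.8% of the listed genes. In 31 lists every measured gene had at least 10 reads. The list shares spanned from 8.89% for the large ribosomal subunit to 0.0151% for the olfactory system, and 13 lists passed 1%. The list of genes encoded by the mitochondrial genome had no measured member and was not analysed here.

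**Figure D2:**
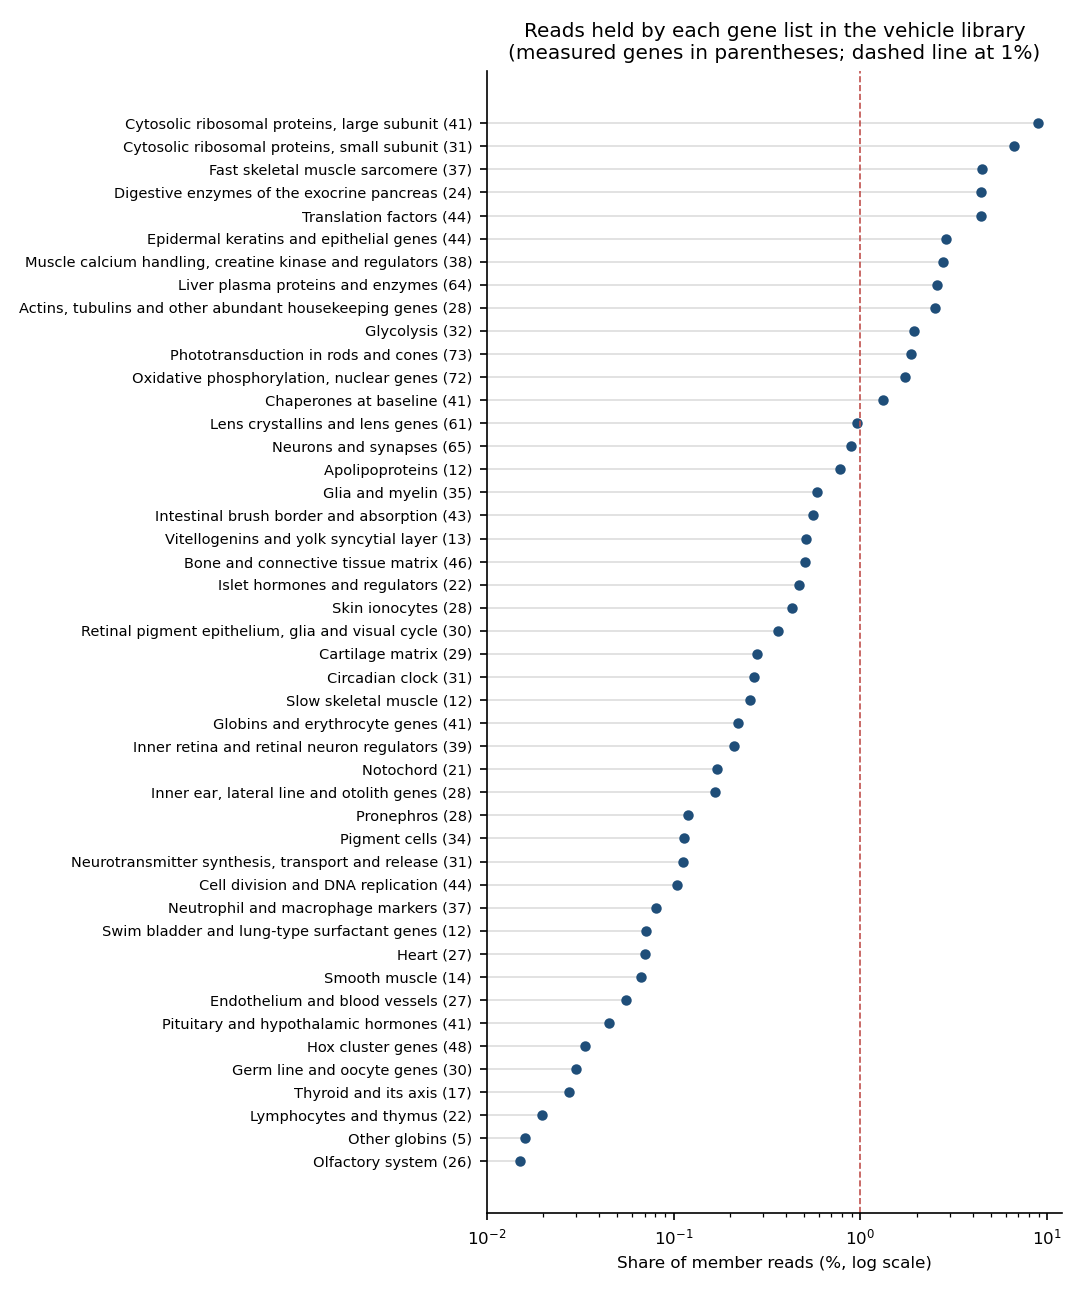
Share of the member reads (percent, log scale) held by each of the 46 gene lists with a measured gene in the DMSO vehicle library, with the number of measured genes in parentheses and a dashed line at 1%. The ribosomal lists lie highest at 8.89% and 6.63%, followed by fast muscle, pancreatic enzymes and translation factors at 4.42 to 4.50%.

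Protein synthesis was the function with the largest share among the lists. The 72 measured ribosomal proteins of the 2 subunits held 15.5% of the reads (95% CI 15.51% to 15.53%), with 8.89% on 41 large subunit genes and 6.63% on 31 small subunit genes. Each of the 72 lay above the median of all members. No single gene led them, and the largest member of its list, rpl7 with 136811 reads or rps3a with 159284 reads, held only 4.50% of the large and 7.04% of the small subunit reads. A few copies stood far below the rest. These were rpl37 with 401 reads beside 50126 reads on a second entry annotated as a ribosomal protein L37 (LOC100000999), rps8b with 361 reads beside 105736 on rps8a, faub with 863 reads beside 49201 on faua, and the ribosome biogenesis relative rpl7l1 with 2047 reads. Translation factors added 4.42% (95% CI 4.414% to 4.428%) over 44 genes. In this list ef1a held 28.1% of the reads, and the translocation factor eef2b had 153566 reads, the nucleotide exchange factor subunit eef1g had 118510 reads and the nascent chain factor naca had 83382 reads. At the low end, the cap-binding protein eif4e1c had 552 reads.

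Skeletal muscle genes together held 7.54% of the reads over 87 genes (95% CI 7.527% to 7.545%). The fast sarcomere list had 37 measured genes and 4.50% (95% CI 4.49% to 4.51%), and 33.2% of its reads lay on myhz1. After it came mylz2, the myosin heavy chain myhz2 with 131632 reads, the tropomyosin tpma with 131545 reads, the troponin T tnnt3b with 88053 reads and the troponin I tnni2a with 85098 reads. The troponin C tnnc2 had 66627 reads, and the 2 titin genes ttnb and ttna had 21761 and 17417 reads. Fewest reads in the list fell on smyd1b, a myosin methyltransferase (191 reads), on myot (LOC100329862, 147 reads) and on the myosin kinase mlck2 (63 reads). The 12 genes of the slow muscle list held 0.257% (95% CI 0.255% to 0.259%), led by the slow myosin smyhc1 with 35739 reads, the tropomyosin tpm3 with 19196 reads and the light chain myl10 with 14940 reads. Reads on the 6 fast myosin heavy chain genes were 15.0 times those on the 3 slow ones (95% CI 14.9 to 15.2).

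The genes that feed and switch the sarcomere held 2.78% (95% CI 2.772% to 2.783%) over 38 genes, or 1.76% without pvalb2. Calcium buffering led this list, through the parvalbumin genes pvalb2, pvalb1, pvalb4 and pvalb3. The whole family of 9 parvalbumin genes, whose other members are not in the list, had 633268 reads. Of these, 54.9% lay on pvalb2 and most of the rest on pvalb1, followed by pvalb4 with 41996 reads. Outside the list, pvalb7 had 12435 reads. The lowest of the family was pvalb3 with 332 reads. The creatine kinases ckmb and ckma, which buffer ATP, had 77570 and 71541 reads. The sarcoplasmic calcium pump atp2a1 had 55386 reads and its relative atp2a1l had 29917, while the copies best known from heart and slow fibres, atp2a2a and atp2a2b, had 2578 and 1197 reads. Regulators of muscle fate stood at the low end, with 158 reads on myod1 and 58 reads on myf5.

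Digestive enzymes of the exocrine pancreas held 4.43% (95% CI 4.422% to 4.435%) on 24 measured genes, with a list median of 25307 reads beside 312 reads for all members. The 3 leading genes, prss59.2, try and ctrb1, held 55.8% of the list. Proteases of other kinds followed, namely the carboxypeptidases cpa5 (100284 reads) and cpb1 (59358 reads), the elastases ela2l (87770 reads), ela2 (65902 reads) and ela3l (62739 reads), and the second chymotrypsin ctrl (67359 reads). The starch enzyme amy2a had 84198 reads and the lipase cel had 55721 reads, beside 12543 reads on its copy cell. The trypsin family was divided sharply. Of its 638378 reads, prss59.2 held 52.4% and try nearly all the rest, and the other 4 trypsin-like entries had 193, 70, 9 and 0 reads. The acinar regulators ptf1a and rbpjl had 106 and 78 reads.

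The islet list, by contrast, rested on 1 gene. It held 0.468% (95% CI 0.465% to 0.470%) over 22 genes, and gip, which in mammals encodes an incretin hormone of the gut, held 69.5% of its reads. Next came neurod (13889 reads), scg3 (9881), scg2b (9031) and scg2a (4077). The photoreceptor list also holds neurod, and the neuron list also holds scg2b. Whether the reads of this list came from islets was not tested. The insulin gene ins had 1306 reads, the glucagon gene gcga had 1183 reads and the somatostatin genes sst3, sst1 and sst2 had 1303, 783 and 689 reads. Reads on gip were 18.1 times those on the 9 insulin, glucagon and somatostatin genes together (95% CI 17.7 to 18.6). A second insulin gene, insb, had 6 reads, and the zinc transporter of the insulin granule, slc30a8 (LOC560642), had 8 reads.

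Liver genes held 2.58% (95% CI 2.573% to 2.584%) over 64 measured genes, 57 of them above the median of all members. Among its genes with the most reads were the secreted protein fetub with 122388 reads, the retinol carrier rbp4 with 102999 reads, the iron carrier tfa with 70878 reads and the liver fatty acid binding protein fabp10a with 55307 reads. The drug-metabolizing enzyme cyp3a65 had 34805 reads and the protease inhibitor serpina1 had 34006 reads. The 3 fibrinogen chains, which form 1 clotting protein, lay close together with 15092 reads on fgg, 11244 on fga and 11195 on fgb. Fewest reads in the list were on cps1 (56 reads), the clotting factor f9a (48 reads) and hgfac (LOC100332841, 7 reads). The list of apolipoproteins, the protein part of lipid particles, held 0.779% (95% CI 0.777% to 0.782%) over 12 genes, which include the lipase lpl (14343 reads) and the lipid transfer gene mtp (1490 reads). The large apolipoprotein B gene apobl had 124938 reads, 24.3 times the 5147 reads on apob (95% CI 23.6 to 24.96), and apoa4, apoeb and apoa1 had between 33024 and 34098 reads each.

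Yolk genes were divided in the same library. The 7 vitellogenin genes, which encode the yolk protein made in the liver of adult females, had 55 reads in all, 31 of them on vtg1. Genes listed for the larva's own yolk handling differed widely, with 124938 reads on apobl and 42176 reads on the cathepsin ctsl1a. Lower were mtp with 1490 reads, slc30a10 with 353 and mxtx2 with 0. The entries apobl, ctsl1a and ctsba made 98.9% of the reads of the yolk list. The entry apobl, 71.7% of that list, is the same one that the apolipoprotein list holds. Whether these reads came from yolk tissue was not tested. Intestinal genes held 0.556% (95% CI 0.553% to 0.558%) over 43 genes with no strong leader. The purine enzyme ada had 18192 reads, the fatty acid and bile acid binding proteins fabp2 and fabp6 had 18141 and 15087, and the retinol binding protein rbp2a had 14360. Peptide uptake was represented by slc15a1b with 7212 reads beside 1705 reads on slc15a1a (LOC100004272). The fewest reads were 40 on the regulator cdx4 and 16 on a second copy of fabp1b (LOC100330224).

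Skin was represented by keratins. The epidermal list held 2.87% (95% CI 2.863% to 2.874%) over 44 genes, of which 3, krt4, cyt1 and cyt1l (131989 reads), held 63.4%. The 8 keratin genes together had 809226 reads. Below the leaders came krt8 with 71531 reads, krt5 with 56239 reads and krt15 with 29322 reads, and the calcium-binding S100-type genes icn and icn2 had 28579 and 12347 reads. The epithelial adhesion gene epcam had 10406 reads and tp63, the regulator of the basal layer, had 1035 reads. The transglutaminase tgm1, which cross-links the cornified envelope in mammals, had 55 reads. Ionocyte genes held 0.433% (95% CI 0.431% to 0.435%) over 28 genes, and the ammonia channel rhbg had 17716 reads among them. Lower in the list were other ion transport genes and their regulator, with 1251 reads on the sodium chloride cotransporter slc12a10, 1043 on the calcium channel trpv6 and 434 on foxi3a. The parathyroid hormone gene pth1a had 4 reads beside 161 reads on pth1b.

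**Figure D3:**
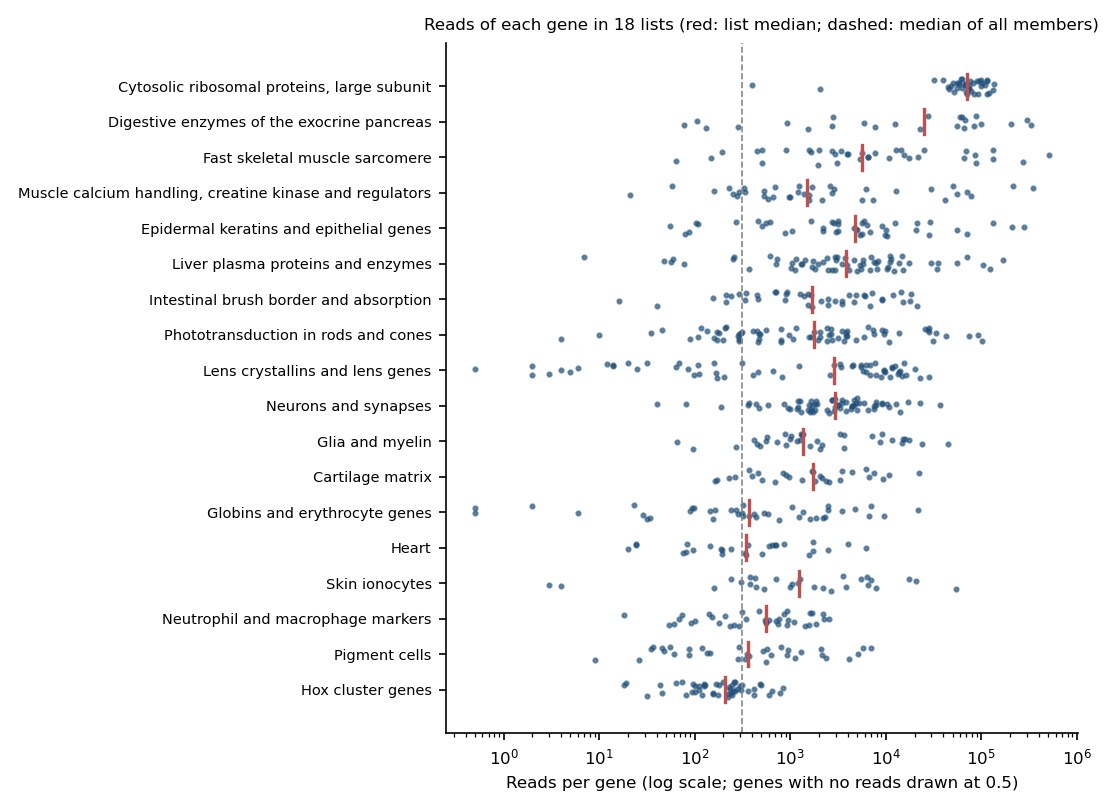
Reads per gene (log scale, genes with no reads drawn at 0.5) in 18 of the gene lists of the DMSO vehicle library, 1 point a gene, with the list median in red and the median of all members, 312 reads, as a dashed line. Most ribosomal proteins of the large subunit cluster around their median of 70575 reads, with rpl7l1 and rpl37 far below. The pancreatic, lens, photoreceptor and erythrocyte lists spread far more widely than this cluster.

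The 4 eye lists together held 3.38% of the reads over 201 genes (95% CI 3.374% to 3.386%). Some of these genes, such as apoeb, glula and gad1b, are also in lists of other tissues. The photoreceptor list held 1.86% (95% CI 1.854% to 1.864%) over 73 genes. It includes genes of phototransduction, the cascade that turns a photon into an electrical signal, and others such as prph2a and prph2b of the disc rim. The leading gene was pde6h, whose product restrains the cone phosphodiesterase, with 100605 reads. Among the opsins the order by reads was the ultraviolet cone opsin opn1sw1 (91458 reads), rod opsin rho (74590 reads), the red opsin opn1lw2 (42414 reads), the green opsin opn1mw1 (33972 reads) and the blue opsin opn1sw2 (28020 reads). Tandem copies of the red and green opsins were far lower, with 2697 reads on opn1mw2, 282 on opn1lw1, 10 on opn1mw3 and 4 on opn1mw4. The 8 cone opsins together had 2.67 times the reads of rho (95% CI 2.64 to 2.69).

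Other steps of the cascade also had more reads on the cone gene than on the rod gene. For the transducin alpha subunit, gnat2 of cones had 31339 reads and gnat1 of rods had 10683 reads, a ratio of 2.93 (95% CI 2.87 to 2.999). The transducin gamma subunit gngt2b of cones had 26051 reads, 3.45 times the 7552 reads of the rod gene gngt1 (95% CI 3.36 to 3.54). The cone phosphodiesterase pde6c had 9901 reads, against 2410 on pde6a and 2741 on pde6b of rods. Largest among these ratios was that of the inhibitory subunit, with 20.8 times more reads on pde6h than the 4848 on pde6g (95% CI 20.2 to 21.4). The cone arrestin arr3a had 28375 reads and the rod arrestins sagb and saga had 3972 and 3179 reads, and the opsin kinase grk7a of cones had 5947 reads beside 1078 reads on grk1a of rods. Each ratio compares transcripts whose lengths were not taken into account. The rod regulator nrl had 89 reads.

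Lens genes held 0.963% (95% CI 0.959% to 0.966%) over 61 genes, and here the reads were divided among many members, with the first 3 holding 21.8%. Crystallins, the packed proteins that give the lens its refraction, numbered 49 genes with 300135 reads. The 17 gamma M2d crystallins had 150430 reads and ranged only from 1240 reads on crygm2d6 to 15587 reads on crygm2d19 (LOC100329887). The 11 beta crystallins had 117815 reads, led by crybb1l2 (28661 reads), cryba2b (22677 reads) and cryba1l (20386 reads), while crybb3 and crybb2 had 6 and 3 reads. Alpha crystallins, which are chaperones as well as lens proteins, were nearly all cryaa with 4478 reads, beside 32 reads on cryabb and 2 on cryaba. How reads that match several near-identical copies were counted is not given in the sources used here, so the division within the crystallin family is uncertain. The lens water channels mipa and mipb had 6191 and 5525 reads, a ratio of 1.12 (95% CI 1.08 to 1.16).

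Of the remaining eye genes, those of the retinal pigment epithelium, retinal glia and visual cycle held 0.362% (95% CI 0.360% to 0.364%), with 33401 reads on the lipid carrier apoeb and 22061 on irbp, which carries retinoids between photoreceptors and epithelium. Of this list, 27.0% was apoeb, which the apolipoprotein list also holds, and 19.2% was glula, which the glia list also holds. Enzymes of the visual cycle had fewer reads, with 1849 on rdh8, 1615 on rdh10a and 910 on rdh12, which act on retinol or retinal, and 407 and 126 on rpe65b and rpe65a. Inner retina genes held 0.211% (95% CI 0.210% to 0.213%), led by gad1b (10163 reads) and gad2 (8316 reads), which make GABA and are shared with the brain, and ended with 121 reads on atoh7, a regulator of ganglion cell birth, and 93 reads on six6a.

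Neurons held 0.887% of the reads (95% CI 0.884% to 0.890%) over 65 genes, 62 of which lay above the median of all members. The list was broad, with 25.4% of its reads on the first 3 genes, the microtubule regulator stmn1b (37044 reads), the vesicle fusion gene snap25a (22714 reads) and the calmodulin gene calm1a (17217 reads). Glia held 0.588% (95% CI 0.586% to 0.591%) over 35 genes, among them the membrane protein gpm6aa (44627 reads, 22.2% of the list), which neurons also make, the glutamine synthetases glula and glulb (23680 and 17511 reads), the glutamate transporter slc1a2b (14756 reads), the glial filament gfap (11628 reads) and the myelin gene mbp (8807 reads). The water channel aqp4 had 66 reads. Transmitter genes held 0.113% (95% CI 0.112% to 0.114%) over 31 genes and differed by transmitter. Beside the GABA enzymes, the acetylcholine esterase ache had 5050 reads, the inhibitory vesicle transporter slc32a1 had 2696 reads and the acetylcholine transporter slc18a3a had 1401 reads. The excitatory vesicle transporters slc17a6b and slc17a6a had 984 and 876 reads.

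Pituitary and hypothalamic hormone genes held 0.0454% (95% CI 0.0447% to 0.0461%) over 41 genes. Growth hormone, gh1, was first with 2635 reads, before adcyap1b (2180 reads), vip (1164 reads), the melanin-concentrating hormone gene pmchl (949 reads) and pomca, the precursor of corticotropin (605 reads). At the low end were kiss1 with 15 reads, smtla with 8, ghrh with 3 and fshb, the beta chain of follicle-stimulating hormone, with 2. Other hormone genes of reproduction were higher, with 174 reads on cga, 129 on gnrh3, 74 on gnrh2 and 54 on kiss2. The thyroid list held 0.0276% (95% CI 0.0270% to 0.0281%) over 17 genes, 52.5% of it on the hormone carrier ttr (4948 reads), which the liver makes, while thyroglobulin, tg, had 903 reads and the receptor of thyrotropin, tshr (LOC560609), had 18 reads.

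In the skeleton, the leading matrix genes of cartilage and connective tissue had many reads, and the osteoblast regulators sp7, runx2b and runx2a had few. Cartilage matrix genes held 0.280% (95% CI 0.278% to 0.282%) over 29 genes, with 22061 reads on the type II collagen col2a1a, 10931 on matn4, 9366 on col11a1a, 7479 on matn1 and 6629 on col9a2. The bone and connective tissue list held 0.505% (95% CI 0.503% to 0.507%) over 46 genes and was led by matrix genes that many tissues make, fn1b (40410 reads), sparc (30238 reads) and the type I collagens col1a1a (14080 reads), col1a1b (11121 reads) and col1a2 (9354 reads). The reads on fn1b were 23.2 times the 1740 reads on its copy fn1 (95% CI 22.1 to 24.4). The osteoblast regulators runx2b and runx2a had 23 and 18 reads. Other genes of bone formation were higher than these, with 189 reads on entpd5a (LOC556849) and 6241 on the collagen col10a1, which was counted in the cartilage list. In the bone list, dlx5a (617 reads), dlx3b (590), bmp4 (574), runx3 (492) and bmp2b (467) lay above the median of all members. Notochord genes held 0.171% (95% CI 0.170% to 0.173%), and 37.7% of this was col2a1a, which cartilage shares.

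Among the globins of blood, the embryonic genes held nearly all reads. The erythrocyte list held 0.222% (95% CI 0.220% to 0.223%) over 41 genes, first among them the peroxide enzyme prdx2 with 21783 reads, which other cells also make. The 9 embryonic globin genes had 30179 reads, led by hbbe1 (9500 reads), hbae3 (6691 reads) and hbbe1.2 (MGC173646, 4817 reads), with 0 reads on hbbe3. The 3 adult globin genes had 8 reads in all, 6 on hbaa1, 2 on ba1l and 0 on ba1, so that the embryonic genes had 3772 times more reads (95% CI 1914 to 8739). The beta genes of the embryonic set had 1.73 times the reads of the alpha genes (95% CI 1.69 to 1.77). The division among near-identical globin copies is uncertain in the same way as that among the crystallins.

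White blood cells and vessels gave small shares. The neutrophil and macrophage list held 0.0805% (95% CI 0.0796% to 0.0815%) over 37 genes, with 2532 reads on the lysozyme lyz, 1082 on the macrophage gene mpeg1 and 953 on the neutrophil peroxidase mpx. The inflammatory cytokine tnfa had 18 reads. Lymphocyte and thymus genes held 0.0198% (95% CI 0.0194% to 0.0203%), and 82.0% of this lay on the 3 genes tox (3501 reads), gata3 (1556 reads) and rag1 (495 reads), the first pair of which are also made elsewhere. The recombinase rag1 had reads, but dntt, which adds bases at joined receptor segments, had none and an immunoglobulin constant gene (igic1s1) had 2. Endothelial genes held 0.0559% (95% CI 0.0551% to 0.0566%), led by vsg1 (2731 reads) and s1pr1 (2558 reads), with 1110 reads on the vessel receptor kdrl and 731 on the junction cadherin cdh5. The heart list held 0.0706% (95% CI 0.0697% to 0.0715%) over 27 genes, with 6168 and 4053 reads on the troponin T genes tnnt2d and tnnt2e, 863 on the cardiac troponin T tnnt2a, 1733 on the ventricular myosin vmhcl, 1562 on the light chain myl7 and 341 on the hormone nppa. The genes tnnt2d and tnnt2e made 25.6% and 16.8% of the list, and whether these reads came from the heart was not tested. The regulator tbx5a had 20 reads. Smooth muscle genes held 0.0668% (95% CI 0.0660% to 0.0677%), led by acta2 with 5010 reads.

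Pigment cell genes held 0.113% (95% CI 0.112% to 0.114%) over 34 genes, and its members differed widely. The purine enzymes pnp4b and pnp5a had 7080 and 5776 reads, while pnp4a, the purine enzyme that marks the reflecting iridophores, had 291. The melanosome gene pmela had 948 reads, tyr had 37, the melanosome exchanger slc24a5 had 35 and mitfa, the regulator of the melanophore lineage, had 9. Pronephros genes held 0.119% (95% CI 0.118% to 0.120%), with 6573 reads on pdzk1 and 6464 on cdh17 of the tubule and 57 on nephrin (nphs1l) of the filter. The inner ear list held 0.166% (95% CI 0.164% to 0.167%), 53.4% of it on sparc, and among ear genes proper the otolith matrix gene stm had 10037 reads and otomp had 1786. Swim bladder genes held 0.0708% (95% CI 0.0699% to 0.0717%), with 45.6% of it on the water channel aqp3a (11019 reads) and 20.7% on acta2, which smooth muscle shares. Olfactory genes held 0.0151% (95% CI 0.0147% to 0.0155%), 62.6% of it on calb2a (3235 reads), which the inner retina list also holds, and the olfactory marker ompa had 541 reads. The 95 odorant receptor genes whose names begin with or had 852 reads in all. Of these 95 genes, 32 had at least 10 reads, beside 89.5% of all members. The 29 trace amine receptors named taar had 152 reads, and 5 of them had at least 10.

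Clock genes held 0.269% (95% CI 0.267% to 0.270%) over 31 genes, with 13306 reads on the repressor bhlhe40, 13052 on nr1d2b, 9581 on the cryptochrome cry2a and 3375 on per2. The time of day at sampling is not given in the sources used here. Genes of cell division held 0.104% (95% CI 0.103% to 0.105%) over 44 genes, led by the replication clamp pcna (4478 reads), ccnd1 (4224 reads) and the helicase subunit mcm7 (4006 reads), with 5 reads on ccna1. In the germ line and oocyte list, 83.0% of the 10311 reads were on the linker histone h1fx, which somatic cells also make. The germ cell genes proper, piwil1 and vasa, had 338 and 247 reads, and btg4, ca15b and figla had none.

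Hox genes, which pattern the body axis, were each present at low counts. All 48 measured genes had at least 10 reads, as did 89.5% of all members. Together the 48 genes held 11446 reads, 0.0335% (95% CI 0.0329% to 0.0341%). Their median was 209.5 reads, below the 312 reads of all members, and 9 of the 48 lay above it. The highest was hoxb3a with 845 reads, then hoxc3a (777 reads), hoxb5a (645 reads) and hoxb8a (606 reads), and the lowest were hoxb1a (19 reads) and hoxa11a (18 reads). By cluster, the 15 Hox B genes had 4234 reads, the 14 Hox C genes 3396, the 7 Hox D genes 1945 and the 12 Hox A genes 1871. By position, the 4 genes of group 3 had the most reads of the 13 groups, 2330, and the 4 genes of group 1 had the fewest reads per gene, with a median of 37.5 reads.

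Housekeeping genes were high, as a group, but uneven. Glycolysis held 1.94% (95% CI 1.933% to 1.943%) over 32 genes, with 151899 reads on gapdh, 50720 on eno3 of muscle, 42844 on ldhba and 39011 on gapdhs, while the glucokinase gck had 97 reads. Nuclear genes of oxidative phosphorylation held 1.73% (95% CI 1.722% to 1.731%) over 72 genes, led by the ADP/ATP carrier slc25a5 (92684 reads), vdac2 (37306 reads) and atp5g (36034 reads). The list of actins, tubulins and reference genes held 2.51% (95% CI 2.505% to 2.516%), of which 17.7% was gapdh, counted under glycolysis as well, and 15.6% was actc1b, an actin of muscle. Chaperones held 1.32% (95% CI 1.319% to 1.326%) over 41 genes, and hsp90ab1 alone held 43.9% of these, so that the share was 0.742% without it, followed by hspa8 (61093 reads) and the chaperonin subunit cct6a (21779 reads). The stress-inducible hsp70 had 243 reads, and the related entry hsp70l had 800 reads. Among genes often used as references, rpl13a had 92841 reads and the actin bactin2 had 167340 reads, 3.32 times the 50343 of bactin1 (95% CI 3.29 to 3.36), whereas tbp had 604 and b2m had 346.

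**Figure D4:**
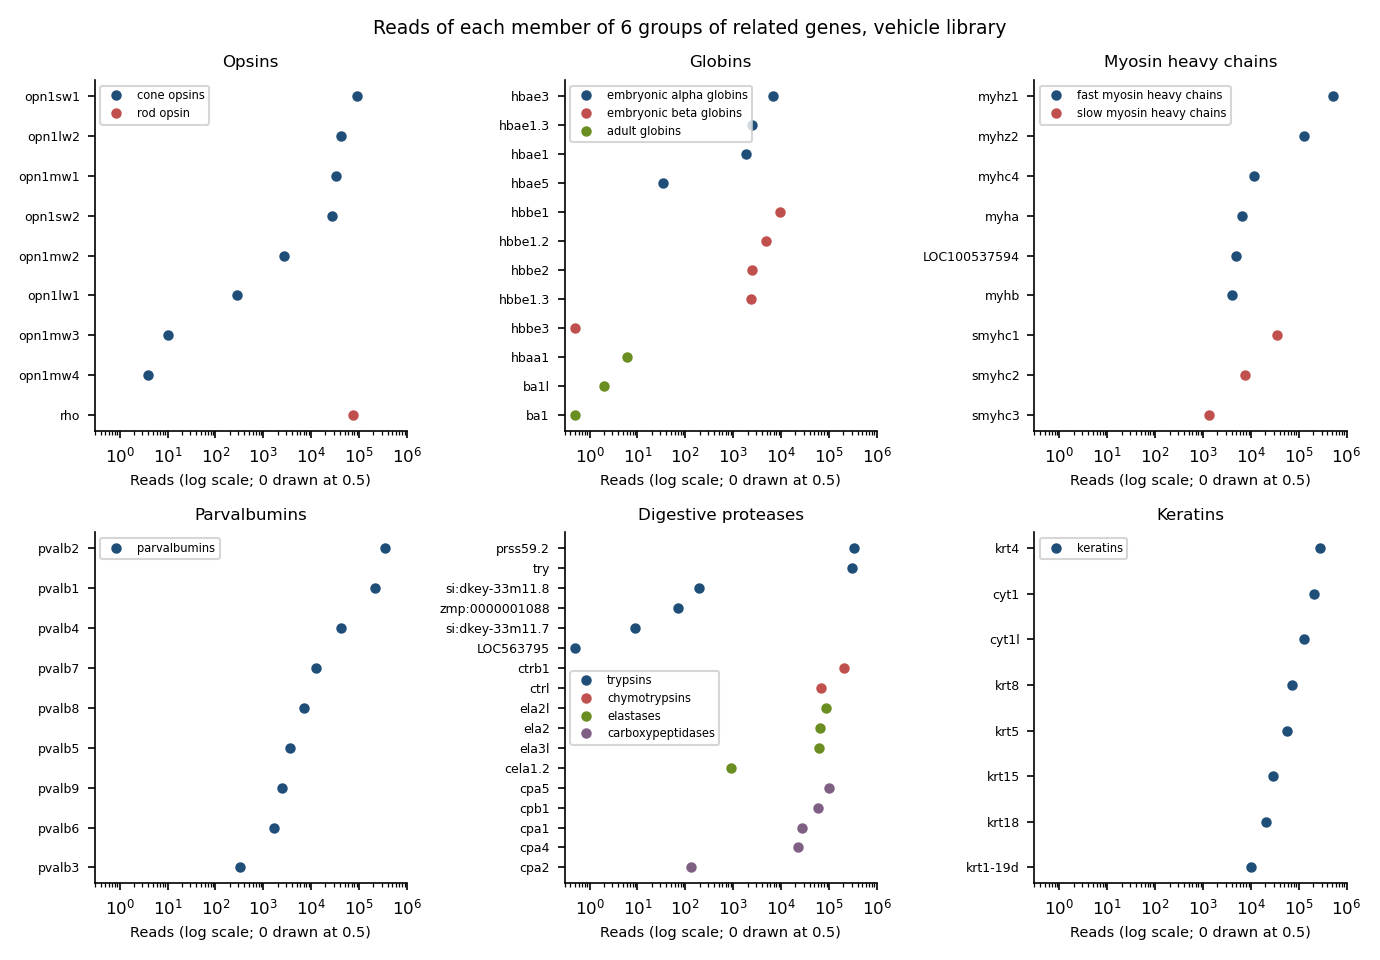
Reads (log scale, 0 drawn at 0.5) of every member of 6 groups of related genes in the DMSO vehicle library, with colours for the subgroups. The opsins, globins and trypsins each include members with 10 reads or fewer, whereas the 8 keratins lie between 10051 and 277266 reads.

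The copies left by gene duplication were compared over a/b pairs. Of 2047 such pairs with any reads, 1953 had at least 100 reads. In 329 of these, 16.8%, 1 copy held at least 90% of the reads of the pair. At the other end, in 471 pairs (24.1%) the larger copy held under 60%. The larger copy held 71.5% in the median pair, and it was the a copy in 55.1% of pairs. Over the 1639 pairs whose copies had the same human match, 16.6% had 1 copy at 90% or more. This set leaves out pairs with different human matches, among them subunits that only share a naming scheme. Copies matched to different human genes, and pairs in which a copy had no human match, are left out as well. A shared human match does not by itself show that the genes of a pair are copies.

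**Figure D5:**
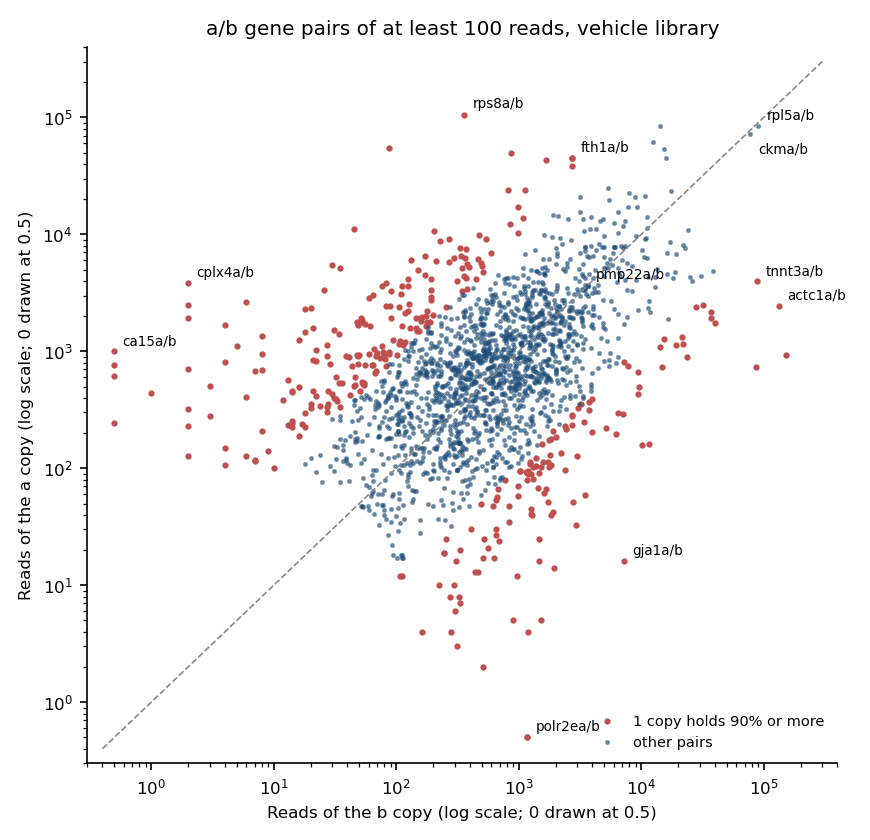
Reads of the a copy (vertical axis) against reads of the b copy (horizontal axis) for the 1953 a/b pairs of at least 100 reads in the DMSO vehicle library, both on log scales with 0 drawn at 0.5 and a dashed line of equal reads. The 329 red pairs have at least 90% of their reads on 1 copy, and they lie on both sides of the line.

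Pairs with the most reads showed both patterns. The ribosomal protein pair rpl5a and rpl5b had 83918 and 90364 reads, 48.2% on the a copy (95% CI 47.9% to 48.4%), and ckma and ckmb had 71541 and 77570 reads. Division was one-sided for actc1a and actc1b, sarcomeric actins, with 2458 and 133531 reads, for tnnt3a and tnnt3b with 3967 and 88053 reads, and for rps8a and rps8b with 105736 and 361 reads. The elongation factor entries eef2a and eef2b had 929 and 153566 reads, and the nucleoside kinase entries nme2a and nme2b had 737 and 87267 reads. Of these, eef2a and nme2b are names that may mix tandem copies. The prolyl isomerases ppiaa and ppiab (entries ppia and ppial) had 61622 and 12591 reads.

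The most unequal pairs of at least 1000 reads had 1 copy at or near the floor. Both polr2ea (LOC100330570), a subunit of the RNA polymerases, and ehd2a (LOC567055) had 0 reads beside 1176 reads on polr2eb and 1168 on ehd2b (entry ehd2). The carbonic anhydrase gene ca15a had 1001 reads beside 0 on ca15b. The synaptic gene cplx4a had 3825 reads beside 2 on cplx4b, syngr1a had 2509 beside 2 on syngr1b, and the nuclear receptor nr0b2a had 1911 beside 2 on nr0b2b. Of the gap junction genes, gja1a (LOC565638) had 16 reads and gja1b (entry cx43) had 7249, and fabp10a had 55307 reads beside 87 on fabp10b. The most equal pairs were the myelin genes pmp22a and pmp22b with 3663 and 3661 reads, pbxip1a and pbxip1b with 2689 and 2703 reads, the unconventional myosins myo7aa and myo7ab (LOC556141) with 653 and 648 reads, and the calcium pumps atp2b3a and atp2b3b with 3506 and 3478 reads. The names fga and fgb also paired, at 11244 and 11195 reads, but they are the 2 different chains of fibrinogen named above and not copies.

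Within tissues, 1-sided pairs were found in most lists that held pairs. Over all 1953 pairs the share with 1 copy at 90% or more was 16.8%. In the photoreceptor list it was 3 of 12 pairs, and 3 of the 10 whose copies had the same human match, for example gnb3a and gnb3b with 2412 and 27944 reads and grk7a and grk7b with 5947 and 213 reads, while the disc rim genes prph2a and prph2b had 9639 and 9043. In the neuron list it was 4 of 12 pairs, but 2 of the 9 with the same human match, namely syt1a and syt1b with 3863 and 82 reads and syn2a and syn2b with 4373 and 360 reads. The names stmn1a and stmn1b, at 1911 and 37044 reads, were left out of the 9 because stmn1b had no human match. Whether they are copies was not tested. In glycolysis it was 4 of 8 pairs, for example tpi1a and tpi1b with 1139 and 19202 reads. In the Hox list it was 1 of 10 pairs, hoxb1a and hoxb1b with 19 and 248 reads. In the retinal pigment and visual cycle list it was 0 of 7 pairs.

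Grouping by the human gene that the authors matched to each entry gave 10961 human matches, of which 3377 had 2 or more zebrafish genes. These took in 9601 members and 44.0% of the reads. In the 3127 of them with at least 100 reads, the leading gene held a median of 68.8% of the reads. The match with the most reads was MYH4, with 669183 reads on 6 genes and 76.2% on myhz1. PVALB followed with 619992 reads on 6 genes and 56.0% on pvalb2. The match EEF1A1 had 426227 reads, 99.4% of them on ef1a, and PRSS1 had 303780 reads, 99.9% of them on try. Reads were shared more widely in CELA2A, where ela2l held 40.6% of 216411 reads on 3 genes, and in CALM2, where calm3b held 27.18% of 81069 reads on 6 calmodulin genes. The widest division among the leading matches was that of CRYGB, with 28 genes, 160283 reads and 9.72% on the leading gene.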

How the data were processed

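One poly(A) RNA library of pooled DMSO vehicle larvae at 6 dpf was analysed. The authors mapped paired reads to the zebrafish Zv9 and human hg19 genomes with BLAST, counted them on gene models and deposited TMM-normalized counts, a signal per gene that is not corrected for length. The counting tool, annotation version, strand and treatment of reads with several matches are not given in the sources used here. Without known strand, overlapping and antisense genes cannot be told apart. Reads were recovered by dividing each value by the smallest step, and no value lay more than 0.00264 of a read from a whole number.

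A gene counted as detected at 10 reads, and a/b pairs were formed from symbols ending in a and b, at a minimum of 100 reads. Current symbols came from RefSeq (assembly GRCz12tu, names only), which matched 16011 members with 96.3% of their reads. Shares carry Clopper-Pearson intervals at 95%, and counts carry exact Poisson intervals. The method was tested on simulated data. Named were the genes with the most reads, the highest and lowest members of each list, the pairs with the most, the most unequal and the most equal reads, the leading human matches, reference genes and members of multigene families. Values named beyond this rule were chosen after they were seen. A few genes that the rule would name are not reported here. The members and lists were chosen with earlier results of these data known, and a few list symbols were corrected against the table after values were seen. The number of sample columns left unmapped was 0. Alternatives changed the denominator, the minimum of reads, the leading gene, the list version and the grouping of copies. No gene lengths were used. Software was Python 3.11.15 with scipy 1.17.1, pandas 2.3.3, numpy 2.4.6, and for plots matplotlib 3.10.9.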

Additional observations from a re-analysis of the deposited data

How the results depend on the processing

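No paired analysis was possible because each condition had 1 library, and no replicate could be left out. The alternatives with reads per kilobase of coding sequence were not run. With the bare clone prefix entries included, the first 10 entries held 21.4% in place of 9.09%. With those entries in the denominator, shares became 3.81% for fast muscle, 2.35% for muscle support, 3.75% for pancreatic enzymes, 2.18% for liver and 2.43% for epidermis. They became 1.57% for photoreceptors, 7.53% and 5.61% for the large and small ribosomal subunit and 3.74% for translation factors. The shares of glycolysis, oxidative phosphorylation, actins and tubulins, and chaperones became 1.64%, 1.46%, 2.12% and 1.12%. Without the leading gene of each list, in the same order, they were 3.01%, 1.76%, 3.45%, 2.08%, 2.06%, 1.56%, 8.49%, 6.16%, 3.18%, 1.44%, 1.45%, 2.02% and 0.742%, so pvalb2 and hsp90ab1 each moved a share by over 1.5 times. The lists as first written, an alternative added after the data were seen, gave 4.26% for fast muscle, 8.74% for the large subunit and 4.34% for translation factors. Merging genes with 1 human match put 218 in place of 278 genes at 50% of the reads. Minimums of 3 and 100 reads gave 18724 and 13741 detected genes. The share of 1-sided pairs was 16.7% at a minimum of 20 reads and 17.2% at 1000 reads. Depth limits single genes most, since at 10 reads the Poisson interval runs from 4.80 to 18.4 reads.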

Other observations

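Human matches with many zebrafish genes added many entries and few reads. The 29 human matches with 20 or more zebrafish genes held 1130 members, 5.70% of all, but 0.878% of the reads, and their median gene had 24 reads. The match with the most genes was NLRC3, a family of intracellular immune sensors, with 140 genes and 24545 reads in all. Of these 140 genes, 139 had at least 10 reads, beside 89.5% of all members. PIM3, a kinase match, had 124 genes and 3152 reads, 35.1% of them on the single entry pim1, and 36 of the 124 had at least 10 reads. The trace amine receptor match TAAR6 had 47 genes and 102 reads, and 2 of these genes had at least 10. The calcium-sensing receptor match CASR had 45 genes and 407 reads. Against this pattern, CYP2J2, a match of drug and fatty acid oxidases, had 30 genes and 32443 reads, and CRYGB, the lens crystallin match, held more reads than any other of the 29. How reads that match several near-identical copies were counted is not given, so their division within these families is uncertain.

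Entries deposited under a LOC name were numerous and mostly low. Some of them have a current symbol, such as LOC100535672, which is prss59.2. Entries named LOC made up 42.6% of the members and held 8.95% of the reads, with a median of 80 reads, beside 660 reads for the other members. The 2629 members with no human match held 5.91% of the reads.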
